A study of Mus musculus with 7 samples.

Results

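The IL-10 receptor signalling genes described here are 9 genes of the 19938 measured: the cytokine Il10, the receptor chains Il10ra and Il10rb, the kinases Jak1 and Tyk2, the transcription factor Stat3, and the downstream transcriptional regulators Sbno2, Nfil3 and Etv3. They were chosen by gene symbol, with earlier results of these data known. Each of the 9 was matched by exactly 1 row of the array that carries no other symbol. Expression was measured on 7 Affymetrix arrays of macrophages sorted by flow cytometry from the lamina propria of the colon, the layer under the gut epithelium. The mice were C57BL/6 and 6 weeks old. The 4 groups were resident macrophages of CX3CR1cre:IL10Raflox/flox mice (2 arrays, called Il10ra-deleted), resident macrophages of CX3CR1gfp/+ mice (3 arrays, resident controls), CX3CR1hi macrophages of IL10-/- CX3CR1gfp/+ mice (1 array) and CX3CR1hi macrophages of CX3CR1gfp/+ mice (1 array, CX3CR1hi control). CX3CR1, the fractalkine receptor, marks resident gut macrophages. All mice carried an altered Cx3cr1 allele, with GFP in the controls and the IL10-/- mice and Cre recombinase in the Il10ra-deleted mice. No array held Cre without the floxed Il10ra, so the 2 differences cannot be told apart, and Cre driven by Cx3cr1 acts in any cell that expresses Cx3cr1 or descends from one that did. Whether animals were pooled, or each array stands for its own animal, is not stated, so the p-values reflect the spread among arrays, which may be technical.

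IL-10 is a dimeric cytokine that restrains inflammatory gene expression in macrophages, which both make it and respond to it. It binds IL-10RA, the chain private to IL-10, and the complex then recruits IL-10RB, which is shared with other cytokines of the family. JAK1 is bound to IL-10RA and TYK2 to IL-10RB, and the kinases phosphorylate STAT3, which enters the nucleus and induces SOCS3 and a set of transcriptional repressors. In the gut this pathway is known to keep macrophages from reacting to the microbiota, and its loss leads to colitis in mice and humans.

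All levels below are deposited log2 values. Any pair of the 5 resident arrays shared between 4547 and 6936 exactly equal values among 35399 rows, whereas any pair that included a CX3CR1hi array shared at most 2. The upper quartile was 7.93 to 8.01 in the resident arrays, against 8.30 in the IL10-/- array and 8.26 in the CX3CR1hi control. The sort label also follows the RNA extraction kit, as far as the protocol numbers the samples in series order. Mutant and control levels were therefore compared only within a sort label, and label, kit and processing cannot be told apart.

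The macrophage label was borne out by the defining markers, 13 of 13 measured, with a mean log2 value of 11.10 and 11.29 in the Il10ra-deleted arrays, against 11.21 to 11.34 in the resident controls, and of 11.52 in the IL10-/- array, against 11.33 in its control. The brightest was the complement gene C1qb, at 13.22 and 13.36 in Il10ra-deleted arrays and 13.16 to 13.22 in resident controls. The mean covers markers that stood apart in both directions. Both Il10ra-deleted arrays were below the control range for Cx3cr1 (difference -0.49), Mrc1 (-0.78) and Cd163 (-1.70), and above it for Fcgr1 (0.61), Mertk (0.95) and C1qa (0.16), and none of the 6 passed the adjusted test. Cx3cr1 is itself the altered gene, with GFP in the controls and Cre in the Il10ra-deleted mice. Its difference cannot be told apart from that of the alleles. Markers of colon epithelium were bright as well. Their mean over 13 genes was 10.14 and 8.18 in Il10ra-deleted arrays 1 and 2, against 10.04 to 10.40 in the resident controls, so that array 2 stood below all others, and 10.26 in the IL10-/- array, against 10.86 in its control. Their brightest, the keratin gene Krt8, read 12.88 and 11.50 in Il10ra-deleted arrays, against 12.77 to 13.08 in resident controls. B and plasma cell markers averaged 7.73 and 8.12 in the Il10ra-deleted arrays, against 7.43 to 7.62 in the resident controls. Dendritic cell markers averaged 6.71 and 6.91 there, against 6.18 to 6.46. T cell and innate lymphocyte markers averaged 5.97 and 6.06, against 5.79 to 5.99, with Cd3e at 6.10 and 5.69, against 5.32 to 5.59. Neutrophil markers averaged 5.81 and 5.38, against 5.24 to 5.31, and all 10 markers of mast cells, eosinophils and basophils, with Ms4a2 the brightest, lay below log2 5.86, the median of all deposited values, in all 7 arrays. Fibroblast and muscle markers were lower in the Il10ra-deleted arrays, at 6.45 and 6.37, against 6.82 to 7.24. Monocyte markers averaged 8.01 and 7.43, against 7.13 to 7.32, with 4 of 8 higher and 4 lower in the mean, from -1.46 for Fn1 to 3.12 for F10. The brightest of the remaining lists were Ccr2 for monocytes, Ly6g for neutrophils, Dpp4 for dendritic cells, Cd4 for T cells, Jchain for B and plasma cells, Dcn for fibroblasts and Lyve1 for endothelium and glia. The part of other cells in the results below was not tested. In RNA of sorted cells, fewer cells of a type and less RNA per cell cannot be told apart.

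**Figure D1:**
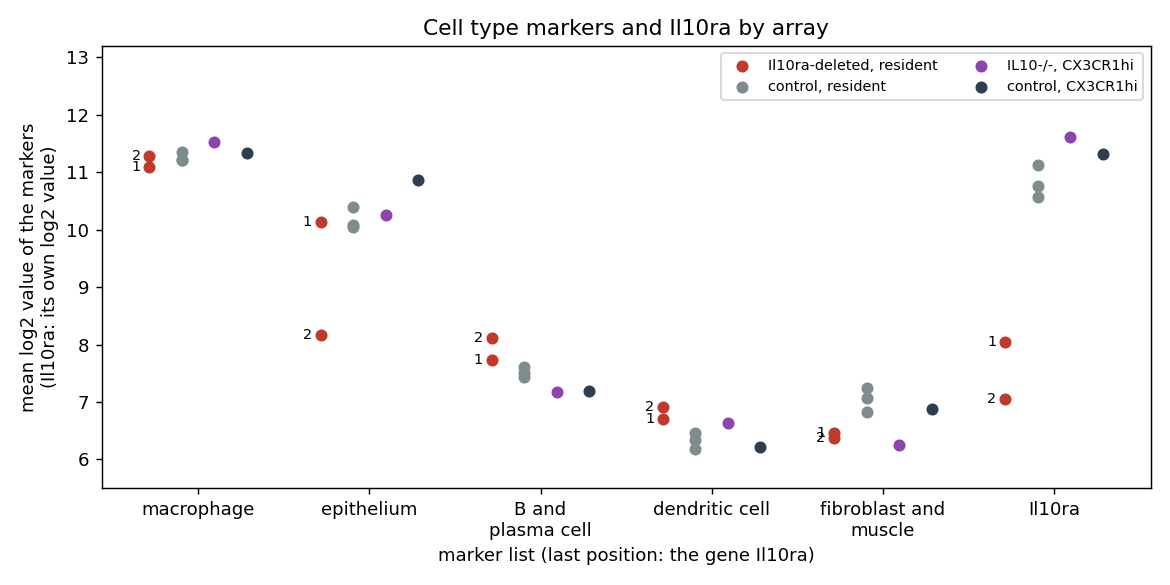
Mean log2 value of the markers of 5 cell types in each array (vertical axis; Il10ra at the right is its own log2 value), with the Il10ra-deleted arrays left of the resident controls and the IL10-/- array left of its control. Points are arrays, and the digits 1 and 2 name the Il10ra-deleted arrays. Array 2 was lowest for epithelial markers (8.18) and for Il10ra (7.04), while macrophage markers lay between 11.10 and 11.52 in all 7 arrays.

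Il10ra, the ligand-binding chain, was lower in both Il10ra-deleted arrays than in any resident control. It read 8.05 and 7.04 in the Il10ra-deleted arrays, against 10.56, 10.76 and 11.12 in the resident controls. The groups were far apart, and both Il10ra-deleted arrays still lay above log2 5.86. The difference was -3.27 ± 0.38 on the log2 scale (SE, 2 against 3 arrays; 95% interval -4.34 to -2.19), which is 9.63-fold. By limma the adjusted p over all genes was 0.243, so Il10ra did not pass 0.05. Of 19938 genes 1 passed (0.00502%), Fcrls, a receptor-like gene outside the pathway, and an exact permutation of 2 against 3 arrays cannot give a two-sided p below 0.2. Il10ra passed when the 7 arrays were quantile normalized together (adjusted p = 0.0193) or centred on their medians (adjusted p = 0.000591). These are only a part of the 14 alternatives described at the end, and Il10ra did not pass in all of them.

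The 2 Il10ra-deleted arrays differed from each other by 1.00 in Il10ra, more than the 0.56 spanned by the 3 controls. Array 1 stood 6.80-fold and array 2 13.6-fold below the control mean. Array 2 is also the array with the low epithelial markers, whose part in this spread was not tested. The sample numbers in the titles form 2 runs, 54 to 56 and 67 to 68, and the labels do not say what the numbers stand for. Within the first run the difference was -2.61 (6.12-fold) and within the second -4.07 (16.9-fold). In the CX3CR1hi arrays Il10ra read 11.61 in the IL10-/- array and 11.32 in its control, a difference of 0.30 with 1 array a side and no replicate check.

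**Figure D2:**
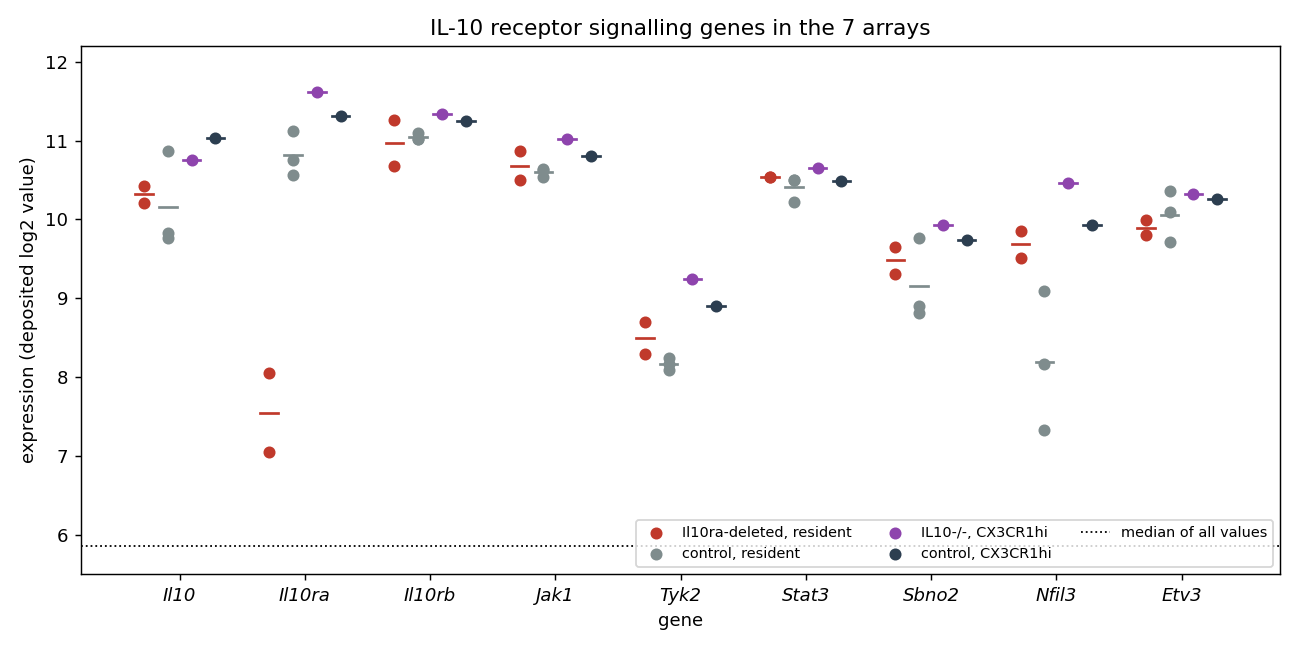
Deposited log2 value (vertical axis) of the 9 genes in each of the 7 arrays. Points are arrays, short bars are group means, the dotted line is the median of all deposited values at 5.86, and each mutant stands left of the control with its sort label. Il10ra is the gene with the wide gap, at 8.05 and 7.04 in Il10ra-deleted arrays and 10.56 to 11.12 in resident controls.

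Il10rb, the shared chain that completes the receptor, was nearly equal across groups. It read 10.68 and 11.26 in the Il10ra-deleted arrays, against 11.02, 11.02 and 11.10 in the resident controls. The controls agreed within 0.08 and lay between the Il10ra-deleted arrays, which were 0.58 apart. The difference was -0.07 ± 0.20 (SE; 95% interval -0.64 to 0.49; adjusted p = 0.917). It was 0.22 without Il10ra-deleted array 1 and -0.37 without array 2. Among the CX3CR1hi arrays Il10rb read 11.34 in the IL10-/- array and 11.25 in its control.

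In the order of the RefSeq gene table Il10rb lies between Ifnar2 and Ifnar1, the chains of the type I interferon receptor, with Ifngr2, a chain of the interferon-gamma receptor, as the next protein-coding gene. Their differences between Il10ra-deleted and resident control arrays were also small, at 0.25 ± 0.20 for Ifnar2, 0.12 ± 0.17 for Ifnar1 and 0.05 ± 0.04 for Ifngr2 (log2, SE). None of the 3 passed (adjusted p = 0.694, 0.798 and 0.709).

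Il10, the cytokine itself, varied more among the resident controls than between the groups. It read 10.21 and 10.43 in the Il10ra-deleted arrays, against 9.76, 9.83 and 10.86 in the resident controls. The Il10ra-deleted arrays lay inside the range of the controls, which were split by control 3. The difference was 0.17 ± 0.42 (SE; 95% interval -1.01 to 1.34; adjusted p = 0.905), 0.42 within the first run and -0.44 within the second. It was 0.53 without control 3 and -0.025 without control 1.

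In the array labelled IL10-/- the Il10 row read 10.75, against 11.04 in the CX3CR1hi control, a difference of -0.28. Il10 was thus bright in an array labelled as lacking it. The position of the probes within the gene, and so relative to the altered stretch, was not analysed here, and the level cannot serve as a check of the label. The values of the IL10-/- array are given as those of the library so labelled.

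The kinases differed little. Jak1, which docks on IL-10RA, read 10.50 and 10.86 in the Il10ra-deleted arrays, against 10.63, 10.54 and 10.64 in the resident controls. The groups overlapped, and the difference was 0.08 ± 0.13 (SE; 95% interval -0.29 to 0.45; adjusted p = 0.840). Its sign depended on the array, at -0.10 without Il10ra-deleted array 2 and 0.26 without array 1. Tyk2, which docks on IL-10RB, read 8.29 and 8.69 in the Il10ra-deleted arrays, against 8.24, 8.09 and 8.17 in the resident controls. Both Il10ra-deleted arrays were above all 3 controls, array 1 by only a little. The difference was 0.33 ± 0.15 (SE; 95% interval -0.09 to 0.74) and did not pass (adjusted p = 0.678). It was 0.12 without Il10ra-deleted array 2 and 0.53 without array 1. In the CX3CR1hi arrays Jak1 read 11.02 in the IL10-/- array and 10.81 in its control, and Tyk2 read 9.24 and 8.91.

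Stat3, the transcription factor through which IL-10 acts, was the member with the closest pair of mutant arrays. It read 10.53 and 10.54 in the Il10ra-deleted arrays, against 10.50, 10.22 and 10.51 in the resident controls. The Il10ra-deleted arrays lay just above the controls, of which control 2 was low. The difference was 0.13 ± 0.11 (SE; 95% interval -0.19 to 0.45; adjusted p = 0.728), or 1.09-fold, and it was 0.034 without control 2. Stat3 in CX3CR1hi cells read 10.65 in the IL10-/- array and 10.48 in its control. The arrays measure the mRNA of Stat3 and not its phosphorylation.

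Nfil3, a basic leucine zipper repressor that IL-10 induces and that acts on Il12b, was higher in the Il10ra-deleted arrays, though not past the test. It read 9.85 and 9.52 in the Il10ra-deleted arrays, against 8.17, 7.33 and 9.09 in the resident controls. Both Il10ra-deleted arrays were above all controls, and the controls alone spanned 1.77. The difference was 1.49 ± 0.59 (SE; 95% interval -0.19 to 3.17; adjusted p = 0.678), which is 2.81-fold. It was 2.11 within the first run and 0.42 within the second, and 1.94 without control 3 and 1.06 without control 2. Nfil3 in CX3CR1hi cells read 10.46 in the IL10-/- array and 9.93 in its control, a difference of 0.53.

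Sbno2, a helicase-like corepressor that IL-10 induces through STAT3, overlapped between the groups. It read 9.65 and 9.31 in the Il10ra-deleted arrays, against 9.77, 8.82 and 8.90 in the resident controls. Control 1 was above both Il10ra-deleted arrays, and the difference of 0.32 ± 0.37 (SE; 95% interval -0.72 to 1.36) did not pass (adjusted p = 0.783). It was 0.62 without control 1 and 0.15 without control 2 or without Il10ra-deleted array 1. Etv3, an ETS-family repressor that IL-10 induces, read 9.80 and 9.996 in the Il10ra-deleted arrays, against 10.36, 9.71 and 10.09 in the resident controls. The groups overlapped, with a difference of -0.16 ± 0.23 (SE; 95% interval -0.80 to 0.48; adjusted p = 0.809). It was -0.0070 without control 1, -0.058 without Il10ra-deleted array 1, -0.26 without array 2 and -0.33 without control 2. In the CX3CR1hi arrays Sbno2 read 9.93 in the IL10-/- array and 9.73 in its control, and Etv3 read 10.33 and 10.26.

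STAT proteins are known to bind palindromes of the form TTCNNNGAA. The upstream sequences of Sbno2 and Nfil3 are shown because both are taken to be induced through STAT3 while only Nfil3 stood outside its control range, and that of Socs3 because it is the best known STAT3 target. The RefSeq promoter table (GRCm38.p6) holds 8 windows for 6 of the 9 genes, and the 250 bases before each start were searched on both strands. TTCNNNGAA was found in 2 of the 8 windows, both of Sbno2, and in 7.02% of all 32851 windows. Sbno2 has 3 windows, and the window of it that is not printed holds no match. The Sbno2 matches lie at positions -26 to -18 from one annotated start and -24 to -16 from another, and the Socs3 match at -154 to -146. The windows are chr10:80102703-80102952 and chr10:80101188-80101437 for Sbno2, chr13:52981040-52981289 for Nfil3 and chr11:117969367-117969616 for Socs3, all on the minus strand and written 5′ to 3′ with the match in capitals. The Nfil3 window holds no match, which says only that these letters are not in it. In all 15 motifs were searched. Of the STAT forms, the palindrome with 1 more inner base was held by 5.85% of all windows, TTCTNGGAA by 1.92%, and TTCCNGGAA, which is contained in TTCNNNGAA and was found in 1 Sbno2 window, by 0.913%. The cAMP response letters TGACGTCA were held by 1.55%, Jak1 among them, and the variant TGACGTAA by 0.447%. The NFIL3 letters TTACGTAA were held by 0.113% and their core TTANNTAA by 5.43%. Of general promoter letters, CCAAT was held by 33.8% of windows, GGGCGG by 32.7%, its longer form GGGGCGGGG by 10.4% and TATAAA by 12.4%. The ETS forms ACTTCCGG and, as a second, ACAGGAAG were held by 2.88% and 2.90%, and the NF-kappaB consensus by 0.14%. A match is a description of the letters and not a binding site.
Sbno2 window 1: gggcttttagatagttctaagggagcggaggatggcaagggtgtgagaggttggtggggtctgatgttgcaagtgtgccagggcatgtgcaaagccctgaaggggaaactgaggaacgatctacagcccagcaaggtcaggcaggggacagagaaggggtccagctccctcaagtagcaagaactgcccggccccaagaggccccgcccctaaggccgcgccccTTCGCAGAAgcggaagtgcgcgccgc
Sbno2 window 2: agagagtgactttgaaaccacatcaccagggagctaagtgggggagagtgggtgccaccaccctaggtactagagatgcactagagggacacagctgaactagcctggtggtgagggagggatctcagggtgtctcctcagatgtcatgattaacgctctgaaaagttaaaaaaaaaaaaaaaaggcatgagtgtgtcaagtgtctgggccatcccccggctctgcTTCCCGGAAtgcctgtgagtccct
Nfil3: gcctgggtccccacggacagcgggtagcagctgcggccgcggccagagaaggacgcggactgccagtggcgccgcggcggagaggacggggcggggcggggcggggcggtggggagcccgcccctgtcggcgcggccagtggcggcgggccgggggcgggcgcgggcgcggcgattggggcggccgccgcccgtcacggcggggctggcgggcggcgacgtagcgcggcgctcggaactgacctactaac
Socs3: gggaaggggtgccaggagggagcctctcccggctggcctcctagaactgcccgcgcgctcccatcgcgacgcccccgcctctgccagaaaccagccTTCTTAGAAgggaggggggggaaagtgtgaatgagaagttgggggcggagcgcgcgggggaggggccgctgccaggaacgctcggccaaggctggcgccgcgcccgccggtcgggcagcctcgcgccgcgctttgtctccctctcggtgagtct

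Socs3, the feedback inhibitor that STAT3 induces, is a member of both the negative feedback and the IL-10 induced list below. It read 10.27 and 9.89 in the Il10ra-deleted arrays, against 9.72, 9.02 and 9.38 in the resident controls. Both Il10ra-deleted arrays were above all controls, with a difference of 0.71 ± 0.27 (SE; adjusted p = 0.666). In CX3CR1hi cells it read 10.94 in the IL10-/- array and 10.66 in its control.

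Across the 9 genes, 0 passed at an adjusted p under 0.05 and Il10ra alone had an unadjusted p under 0.05. That is 1 of 9, against 7.92% of all genes tested. Both Il10ra-deleted arrays lay outside the control range for 4 of 9 genes, below it for Il10ra (8.5% of all genes) and above it for Tyk2, Stat3 and Nfil3 (8.92%), against 17.4% of all genes in either direction and 25.6% of the 9062 genes above log2 5.86 in all 7 arrays. At least 2-fold apart were 2 of 9 genes, against 2.39% of all genes: Il10ra was lower (1.43% of all genes) and Nfil3 higher (0.953%). Il10ra is the gene that the genotype alters, so its place in these counts follows from the design. Without it, 0 of 8 genes had an unadjusted p under 0.05 by limma. Of these 8, 3 lay above the control range, 0 lay below it and 1 was at least 2-fold apart. The median difference of all 9 genes was 0.13, and 0.15 without Il10ra, against 0 over all genes and 0.03 over the genes above log2 5.86 in all 7 arrays. Control arrays agreed best for Il10rb (SD 0.044, n = 3), Jak1 (0.056) and Tyk2 (0.076). For Il10rb, controls 1 and 2 held exactly the same value, as many rows of the resident arrays did. Agreement was least for Nfil3 (0.88), Il10 (0.62) and Sbno2 (0.53), and the interval of the difference was widest for Nfil3.

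**Figure D3:**
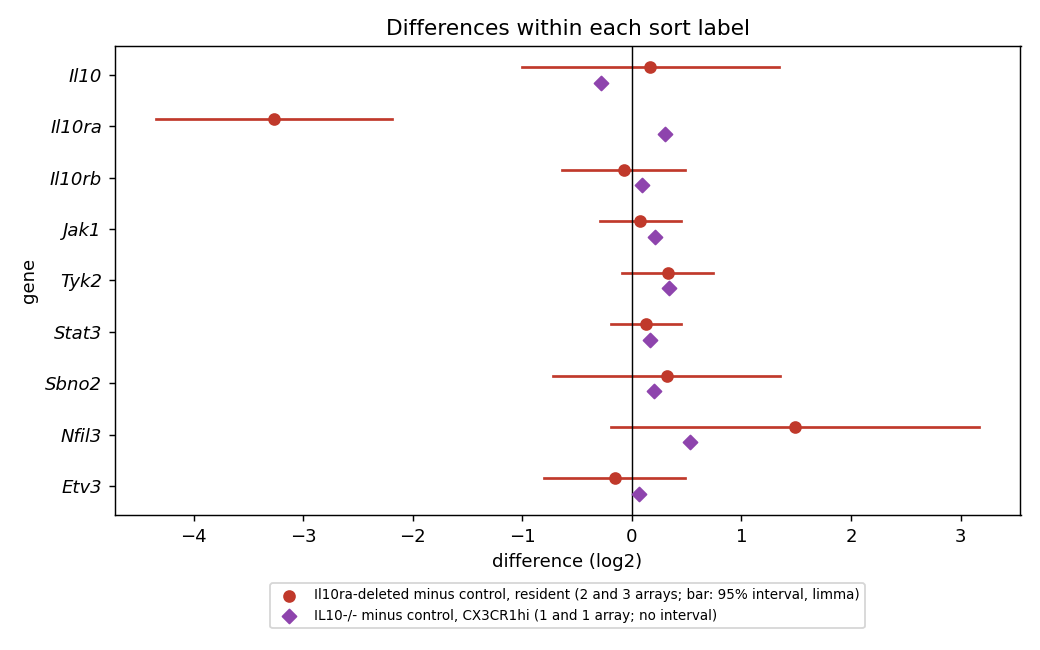
Difference in log2 value (horizontal axis) for each of the 9 genes. Circles are Il10ra-deleted minus resident control (2 and 3 arrays, bars are 95% intervals from limma), and diamonds are IL10-/- minus CX3CR1hi control (1 array each, without an interval). The interval of Il10ra, -4.34 to -2.19, lies below 0, and the intervals of the other 8 genes include 0.

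In the CX3CR1hi arrays 8 of the 9 genes were higher in the IL10-/- array than in its control, all but Il10, against 56.3% of all genes. The median difference was 0.20, against 0.03 over all genes. None of the 9 differed by 2-fold, against 1.92% of all genes (0.692% higher and 1.22% lower), and Nfil3 differed most. The same limma fit can lend these arrays the spread of the resident ones, and on that assumption it called 7.9% of all genes and none of these 9 (adjusted p 0.494 to 0.941), with 22% of all genes and none of the 9 at an unadjusted p under 0.05. That spread comes from arrays that share many equal values, with 2098 genes equal in all 3 resident controls. For that reason, and with 1 array a side, the CX3CR1hi differences are given as values only. The SEs, intervals and p-values of the resident comparison rest on the same spread, and the equal values limit them too. For Il10ra the difference was -3.27 in the resident arrays and 0.30 in the CX3CR1hi arrays, and with 1 array a side in the second no usable test of the difference between them could be made.

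Genes that IL-10 is known to restrain in macrophages had higher means in the Il10ra-deleted arrays, for all 21 measured, against 48.4% of all genes, and both Il10ra-deleted arrays were above the control range for 11 of them, against 8.92%. None passed the adjusted test, 6 had an unadjusted p under 0.05 (4.06% of all genes were higher at that p), and the median difference was 0.60. Of the 21 genes 3 lay below log2 5.86 in all 7 arrays: Csf3, Csf2 and Il12a, with differences of 0.0090, 0.062 and 0.11. For each of these 3, Il10ra-deleted array 2 held exactly the value of a control, so their direction rests on array 1. Among genes above log2 5.86 in all 7 arrays the median difference was 0.03. Of those genes 25.6% lay outside the control range in either direction, against 17.4% of all genes. This list and those below were chosen with earlier results of these data known, so their counts are a description and not a test. Nos2, the inducible nitric oxide synthase, read 9.86 and 8.03 in the Il10ra-deleted arrays, against 5.03, 5.13 and 5.08 in the resident controls, 14.5-fold apart (log2 3.86 ± 0.61, SE, adjusted p = 0.322). The T cell attractant Ccl5 read 12.66 and 12.09, against 9.56, 9.08 and 9.62, and was 7.78-fold apart (adjusted p = 0.208). Il23a, a subunit of IL-23, was 4.63-fold apart (adjusted p = 0.243). The controls of Nos2 and Il23a lay below log2 5.86, a range in which RMA is known to pull values together. The mean levels of the monocyte, neutrophil, B and plasma cell and dendritic cell lists were also above the control range in both of these arrays, as given above. Both arrays were above the range for 2 of 8, 5 of 10, 3 of 9 and 5 of 10 of their markers, against 8.92% of all genes. They were below it for 2, 0, 2 and 2, against 8.5% of all genes. Below log2 5.86 in all 7 arrays were 2, 6, 0 and 3 of the markers. Ly6g, the brightest neutrophil marker, read 9.70 and 8.10, against 6.95 to 8.17 in the resident controls. It also read 9.36 in the CX3CR1hi control, and no other of the 10 neutrophil markers was above log2 5.86 in more than 1 array. The part of these 4 cell types was not tested.

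In the IL10-/- array 17 of the 21 were higher than in the CX3CR1hi control, against 56.3% of all genes, and 5 by at least 2-fold, against 0.692%. Nos2 differed most, at 7.66 in the IL10-/- array and 4.90 in its control, and Csf2, which encodes GM-CSF, was at the other end, with a difference of -0.14. The median difference was 0.46. In the same array dendritic cell markers averaged 6.64, against 6.22 in its control, with Clec9a at 8.44, against 5.80. Of these 10 markers 5 were higher than in the control and 5 lower, with a median difference of 0.08. Fibroblast and muscle markers averaged 6.25, against 6.89. The part of these cells was not tested.

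Other genes that IL-10 induces were not lower in the Il10ra-deleted arrays. All 9 measured had a higher mean, against 48.4% of all genes, 3 were above the control range in both arrays, against 8.92%, and the median difference was 0.33. Ddit4, an inhibitor of mTORC1, read 8.83 and 9.33 in the Il10ra-deleted arrays, against 7.29, 7.82 and 7.80 in the resident controls (log2 1.44 ± 0.26, SE, adjusted p = 0.362). Il1rn, the IL-1 receptor antagonist, read 10.91 and 10.77, against 9.72, 9.49 and 10.30 (1.00 ± 0.28, adjusted p = 0.512). In the IL10-/- array 7 of the 9 were higher than in its control, against 56.3% of all genes. Hmox1, which breaks down heme, was 2.00-fold higher there, and the mRNA-destabilising factor Zfp36 differed by -0.06.

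Negative regulators of JAK-STAT signalling had higher means in the Il10ra-deleted arrays for all 11 measured, against 48.4% of all genes, with 5 above the control range, against 8.92%, and a median difference of 0.45. The 11 include Socs2, which differed by only 0.0042, with both Il10ra-deleted arrays exactly equal to control 3. Ptpn1, a phosphatase of JAK2 and TYK2, read 10.21 and 10.43 in the Il10ra-deleted arrays, against 9.62, 9.29 and 9.88 in the resident controls (0.72 ± 0.21, SE, adjusted p = 0.531). Socs1, an inhibitor of JAK kinases, read 5.63 and 5.58, against 4.86, 4.89 and 4.93, below log2 5.86 in all arrays (0.71 ± 0.03, adjusted p = 0.0902). Cish, a further SOCS-family member, differed by 0.60 ± 0.20 (adjusted p = 0.604). In the IL10-/- array all 11 were higher than in the control as well, against 56.3% of all genes, Socs1 most (0.98) and Socs2 least (0.01), with a median of 0.20.

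The kinases and STATs outside the IL-10 pathway had higher means too, for 6 of 6 measured, against 48.4% of all genes, with a median difference of 0.40. The median was 0.13 without Il10ra-deleted array 2 and 0.66 without array 1. Stat2, part of the interferon-activated ISGF3 complex, read 9.64 and 10.07 in the Il10ra-deleted arrays, against 8.69, 8.75 and 9.12 in the resident controls (1.00 ± 0.21, SE, adjusted p = 0.416). Jak2, a kinase of many cytokine receptors, read 9.60 and 9.60, against 8.27, 8.63 and 9.16 (0.92 ± 0.30, adjusted p = 0.585). Both lay above the control range, unlike Jak1, and the difference between the genes was not tested. In the IL10-/- array all 6 were higher than in its control, against 56.3% of all genes, from 0.07 for Stat4 to 0.54 for Stat2.

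Receptors and ligands related to the IL-10 system followed no common direction in both comparisons. Of the 10 class II cytokine receptors 9 had a higher mean in the Il10ra-deleted arrays, against 48.4% of all genes, and Il20rb was equal, within 0 to 0.30 on the log2 scale. Ifnlr1, the interferon-lambda receptor, differed by 0.24 ± 0.08 (SE, adjusted p = 0.570) and lay below log2 5.86 in all arrays. In the CX3CR1hi arrays Il22ra2, the soluble IL-22 binding protein, read 7.34 in the IL10-/- array and 5.40 in its control, and F3, tissue factor, differed by -0.68. Among 4 measured IL-10 family ligands 3 were below log2 5.86 in all 7 arrays, and Ifnl2, an interferon-lambda, read 6.05 and 6.91 in the Il10ra-deleted arrays, against 7.19, 7.14 and 7.23 in the resident controls (-0.70 ± 0.29, adjusted p = 0.678). In the IL10-/- array Ifnl2 differed from its control by -0.23 and Il20 by 0.18. Of 8 measured receptors that signal through STAT3, 5 had a higher mean and 3 a lower one in the Il10ra-deleted arrays. Csf3r, the G-CSF receptor, read 9.60 and 10.01, against 8.98, 8.33 and 8.92 (1.07 ± 0.28, adjusted p = 0.486). It differed by 0.72 in the IL10-/- array, where the leptin receptor Lepr differed by -0.44.

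Regulators of Il10 transcription had higher means in the Il10ra-deleted arrays for 10 of 14 measured, against 48.4% of all genes, with a median difference of 0.20, while Il10 itself differed by 0.17. Cebpb, a transcription factor that acts on the Il10 promoter, read 9.44 and 9.22 in the Il10ra-deleted arrays, against 8.38, 7.33 and 8.48 in the resident controls (1.27 ± 0.42, SE, adjusted p = 0.599). The salt-inducible kinase gene Sik1 differed by 0.78 ± 0.25 (adjusted p = 0.574) and its target Crtc3, a CREB coactivator, by 0.73 ± 0.23 (adjusted p = 0.566). In the IL10-/- array all 14 were higher than in its control, against 56.3% of all genes, from 0.05 for Atf1 to 0.72 for Sik1. Without Il10ra-deleted array 1 the median between Il10ra-deleted arrays and controls was 0.43, and without array 2 it was 0.05.

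**Figure D4:**
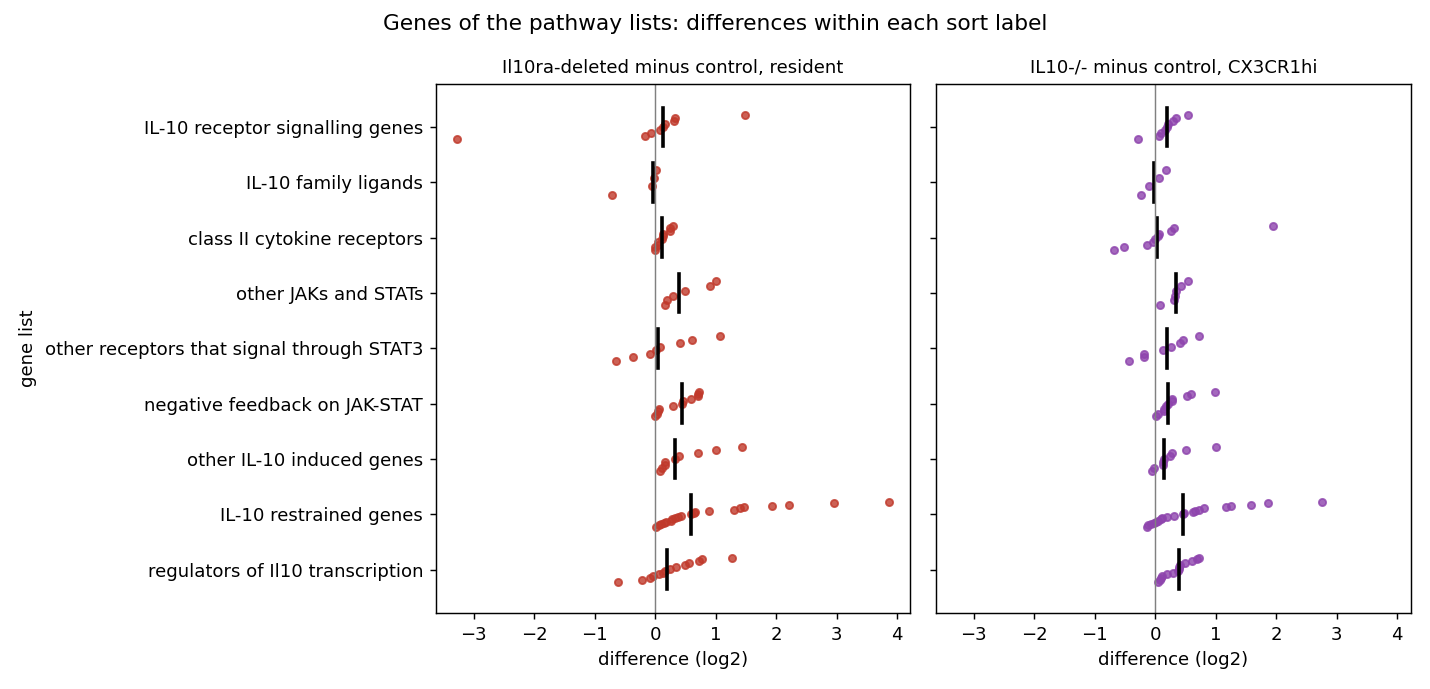
Difference in log2 value (horizontal axes, same scale) of each measured gene of 9 lists (vertical axis), for Il10ra-deleted minus resident control at the left and IL10-/- minus CX3CR1hi control at the right. Points are genes and black bars are list medians. At the left the IL-10 restrained genes have a median of 0.60 and reach 3.86 at Nos2, and Il10ra stands alone at -3.27.

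The pattern of Il10ra over the 7 arrays was most like that of Fads3, a fatty acid desaturase family gene, with a Pearson r of 0.983, among 3738 genes whose values span at least 1 log2 unit. The growth factor gene Igf1 (0.964), podoplanin (Pdpn, 0.962), Pxylp1 (0.960) and the glutathione transferase gene Gstm1 (0.955) followed. Over the 5 resident arrays alone these 5 genes had r of 0.964 to 0.990. Both sets of r take in the gap in Il10ra that goes with the genotype, so the second is no check of the first. All 5 genes were lower in the Il10ra-deleted arrays than in the resident controls, with differences from -0.66 for Pxylp1 to -1.30 for Gstm1. Igf1 read 9.30 and 9.22 in the Il10ra-deleted arrays, against 9.84, 10.06 and 10.10 in the resident controls. The pattern of Il10 was most like that of Rgs1, a regulator of G-protein signalling (r = 0.966), then Hnrnpll (0.959), Coq10b (0.957), Wdr45b (0.955) and Il1r2, the decoy receptor for IL-1 (0.954). Il1r2 read 9.43 and 10.16 in the Il10ra-deleted arrays, against 7.66, 7.77 and 11.19 in the resident controls. Among the 5 resident arrays it was highest in control 3, as Il10 was. Over all 7 arrays Il1r2 was highest in the IL10-/- array (11.37) and Il10 in the CX3CR1hi control (11.04). The 7 arrays span both sort labels, and label, kit and processing cannot be told apart. These r are a description that takes in any such difference.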

How the data were processed

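Affymetrix arrays measured total RNA of sorted colonic macrophages. The authors deposited log2 values per probe set, and the submitters' processing notes name RMA and Partek; for versions, build and joint or separate normalization nothing is stated. Of 35399 rows 21789 carry exactly 1 gene symbol in GEO's platform annotation, 1621 several and 11989 none; gene IDs found 21698 in RefSeq's GRCm38.p6 table, with 0 symbols changed. The brightest row per gene was kept (19938 genes, 999 with several rows), with no filter. Groups follow the source labels, and replicates are numbered in accession order. Limma 3.58.1 in R 4.3.3 (lmFit with a mean per group, eBayes with trend; 3 residual degrees of freedom, prior 0.831) used all 7 arrays. P-values are two-sided and adjusted over all genes by Benjamini-Hochberg, with a threshold of 0.05; intervals are 95% intervals of limma. The contrast between both mutant effects was fitted as designed, but its p-values are not given, since it takes in 1 array a side. The fit was tested on simulated data. The number of arrays limits the precision.

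Members and lists were chosen with earlier results of these data known. Named genes are all members, up to 3 genes in each direction per list with the largest difference at an unadjusted p under 0.05 (or the gene with the smallest p), the extreme genes per list in the CX3CR1hi arrays, the 5 genes most like Il10ra and Il10, and the brightest markers. Fcrls, Socs3, Cd3e, Il20rb, Csf3, Il12a, the macrophage markers outside the control range, Fn1, F10, Clec9a and the neighbours of Il10rb were chosen after their values were seen. Sequences are from RefSeq (GRCm38.p6). Alternatives changed the normalization, a brightness filter, the variance model, the controls used, a block for runs of sample numbers, and the arrays included.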

Additional observations from a re-analysis of the deposited data

How the results depend on the processing

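No paired analysis was possible because the labels give no replicate numbers; the sample numbers in the titles form 2 runs that hold both resident groups, and these were tried as a block. Il10ra was lower in Il10ra-deleted arrays under all 14 alternatives (-3.77 to -2.77, adjusted p 0.000591 to 0.727), with an unadjusted p under 0.05 in each. It passed with quantile normalization, with centring of each array and with all 4 controls as 1 group (-3.25, -3.26 and -3.39; adjusted p = 0.0193, 0.000591 and 0.0178). For Il10ra-deleted against resident control, the number of genes past the threshold was 1, and it was 138 with quantile normalization, 421 with centring, 12 with the brightness filter, 4 without the variance trend, 70 with all 4 controls, 0 with runs of sample numbers as a block, and 0 to 267 on leaving out 1 array. At an unadjusted p it was 1580, and 946 to 3775 on leaving out 1 array. The count for IL10-/- with the borrowed spread was 1576, against 17 with quantile normalization, 129 with centring, 2 with the brightness filter, 758 without the trend, 1043 with robust estimation and 559 to 2788 on leaving out 1 resident array. Members at an unadjusted p numbered 1, and 2 with quantile normalization or centring and 1 to 4 on leaving out 1 array. With the brightness filter the median was -0.70 for the ligands and 0.41 for the receptors that signal through STAT3. On leaving out 1 array the median was 0.21 to 0.50 for negative feedback, 0.22 to 0.74 for other IL-10 induced genes and 0.051 to 0.43 for regulators of Il10. The following were chosen after seeing the data. Restrained genes at an unadjusted p numbered 6, and 10 with quantile normalization, 11 with centring and 10 with all 4 controls. Negative feedback genes at that p numbered 4, and 2 with all 4 controls and 2 to 4 on leaving out 1 array, and those outside the control range 5, and 5 to 9. Members outside that range numbered 4, and 5 to 6, and restrained genes 11, and 11 to 15. Over all genes that share was 17.4%, and 20.0% to 49.2% on leaving out 1 array, since a smaller group is easier to clear. Directions reversed for 6 member values. Il10 differed by -0.025 without control 1 (range -0.025 to 0.53) and by -0.052 with all 4 controls, Il10rb by 0.22 without Il10ra-deleted array 1 (range -0.37 to 0.22) and Jak1 by -0.10 without array 2 (range -0.10 to 0.26). With centring the difference of the 2 mutant effects was 0.032 for Tyk2 and 0.0066 for Stat3. The cause of these changes was not tested, except that leaving out an array removes a value from a group of 2 or 3. The other 270 member values kept their direction and their side of the threshold. With 2 arrays against 3, and 1 against 1, the number of arrays limits every statement.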
